A study of Mus musculus and Homo sapiens
Mus musculus with 14 samples.

Results

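The 10 genes described here carry the cholinergic system of the mouse retina. Chat, Slc18a3, Slc5a7 and Ache make, package, recycle and break down acetylcholine, and Chrna3, Chrna4, Chrna6, Chrna7, Chrnb2 and Chrnb3 encode subunits of the neuronal nicotinic receptors. They were taken by gene symbol from 2 count tables, in which they are 10 of 24460 listed genes (retinal layers) and 10 of 18415 (amacrine cells). Light-Seq reverse transcribes RNA in fixed tissue with random primers ending in GGG. It then crosslinks a DNA barcode onto the cDNA wherever light is directed, so that each barcode marks a chosen region. All retinas came from wild-type CD1 IGS mice in the third postnatal week, with no treatment. In 4 sections of 1 animal, the outer nuclear layer (ONL, photoreceptor cell bodies), the bipolar cell layer (BCL) and the ganglion cell layer (GCL) received a barcode each. In 5 further sections, amacrine cells stained for tyrosine hydroxylase (TH+) received one barcode and unstained amacrine cells (TH-) another. The layer sections are technical replicates from 1 animal, and the methods mention 1 source animal beside the amacrine work too, so p-values measure the spread between sections. A TH+ library holds a handful of cell bodies.

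In the mouse retina, acetylcholine is released by starburst amacrine cells. Their cell bodies lie both in the inner nuclear layer and, as displaced cells, in the ganglion cell layer. Choline enters the terminal through the high-affinity transporter Slc5a7, the enzyme Chat acetylates it, the vesicular transporter Slc18a3 loads it, and the esterase Ache ends the signal. Nicotinic receptors are channels built as a ring of subunits, in which alpha subunits combine with beta subunits, or, for Chrna7, with copies of themselves. Ganglion cells are known to carry nicotinic receptors, and the receptors drive the retinal waves of early development.

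Depth set what could be seen. Levels are given as CPM, the UMIs of a gene per 1000000 UMIs of its library. Molecules were counted through unique molecular identifiers (UMIs), and totals per library were 585655 to 785013 in the GCL, 193869 to 208437 in the BCL and 310228 to 801105 in the ONL. The TH- libraries held 134394 to 200344 UMIs and the TH+ libraries 30317 to 87449. A single UMI is therefore worth 1.27 to 1.71 CPM in the GCL and 11.4 to 33.0 CPM in TH+ libraries. In a check of the labels against markers, all 10 ganglion genes were higher in the GCL than in the BCL, all 10 rod genes were lower in the GCL and in the BCL than in the ONL, and Th was higher in TH+ than in TH- cells (log2 fold change 4.22 ± 0.32 SE, adjusted p = 5.53e-15). In the 3T3 fibroblasts of a mixed-culture control, none of the 10 genes had a UMI among 540880, which allows up to 5.55 CPM for each (3 counts, counting error only).

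Chat and Slc18a3 form 1 locus. On GRCm39, the assembly of the annotation used here, the single exon of Slc18a3 (chr14:32184395-32186807, minus strand) lies inside Chat (chr14:32129369-32187946, minus strand) and shares 0 exonic bases with it. RefSeq's promoter table holds 8 of the 10 genes. Chrna6 and Chrnb3 have no entry. The stretches upstream of 3 machinery genes that were high in the same libraries, and of Chrna3 and Chrna4, whose GCL to BCL fold changes were the highest and the lowest among the alpha subunits, are printed here, each ending just before an exon of its own gene, 5′ to 3′ along the gene, with the GC box (GGGCGG, either strand) in capitals. The table is built on GRCm38.p6, and the coordinates are those of the single match of each window in GRCm39, all on the minus strand. The Chrna4 stretch precedes the first exon of most annotated Chrna4 transcripts but lies within the gene (chr2:180660173-180685339), of which 1 transcript starts further upstream.
Chat (chr14:32187947-32188116): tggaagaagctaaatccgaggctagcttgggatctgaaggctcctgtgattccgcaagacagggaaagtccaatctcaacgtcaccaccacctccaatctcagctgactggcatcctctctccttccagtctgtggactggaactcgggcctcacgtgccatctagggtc
Slc18a3 (chr14:32186808-32187057): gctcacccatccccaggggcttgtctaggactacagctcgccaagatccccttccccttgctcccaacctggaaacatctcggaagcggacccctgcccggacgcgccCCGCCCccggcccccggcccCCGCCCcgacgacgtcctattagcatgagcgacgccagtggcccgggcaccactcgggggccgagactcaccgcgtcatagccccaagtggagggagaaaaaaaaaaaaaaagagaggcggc
Slc5a7 (chr17:54606077-54606312): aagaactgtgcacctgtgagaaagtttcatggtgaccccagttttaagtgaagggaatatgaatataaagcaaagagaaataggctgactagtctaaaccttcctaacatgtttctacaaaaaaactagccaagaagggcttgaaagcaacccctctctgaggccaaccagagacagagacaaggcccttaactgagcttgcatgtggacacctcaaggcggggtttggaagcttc
Chrna3 (chr9:54933942-54934096): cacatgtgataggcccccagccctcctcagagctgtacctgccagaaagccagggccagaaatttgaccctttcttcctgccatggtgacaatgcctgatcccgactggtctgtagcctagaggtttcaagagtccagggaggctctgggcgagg
Chrna4 (chr2:180681117-180681220): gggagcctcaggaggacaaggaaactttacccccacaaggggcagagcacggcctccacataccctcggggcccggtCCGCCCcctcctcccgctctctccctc
The Slc18a3 stretch holds 2 GC boxes and the Chrna4 stretch 1, while the Chat, Slc5a7 and Chrna3 stretches hold 0. Over 32851 upstream windows of 250 bases, 32.7% hold the motif. In windows of that same length, 5 of the 8 members in the table hold it. These are Ache (4 GC boxes), Chrna4 (3), Slc18a3 (2), Chrna3 (1) and Chrna7 (1), while Chat, Slc5a7 and Chrnb2 have 0. Exons of the gene itself take up all 250 bases for Ache, 146 for Chrna4, 95 for Chrna3 and 48 for Chrna7. Before the first such exon, Slc18a3 holds 2 boxes, Chrna4 and Chrna7 1 each, and Ache and Chrna3 0. In the annotation used here, 234 of the 250 Slc18a3 bases are also exonic in Litchi, a long non-coding RNA on the other strand. Other motifs were scanned in the same windows. The homeodomain core (TAAT, 54.9% of all windows) was found only for Slc18a3, and the TATA box (TATAAA, 12.4%) only for Slc5a7. The E-box (CANNTG, 66.2%) was missing only for Chrna4.

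Chat, Slc18a3 and Slc5a7 were low in UMIs and high in the GCL. Chat counted 22, 27, 25 and 19 UMIs in GCL sections 1 to 4, 1, 3, 3 and 1 in the BCL, and 4, 2, 2 and 0 in the ONL. Slc18a3 counted 27, 28, 23 and 26 in the GCL, 0, 0, 1 and 1 in the BCL, and 3, 1, 2 and 1 in the ONL. Slc5a7 counted 24, 29, 19 and 19 in the GCL, 2, 0, 1 and 4 in the BCL, and 5, 0, 0 and 5 in the ONL. For all 3 genes, every GCL section lay above every BCL and ONL section, also after division by library size. Mean levels in the GCL were 34.8 ± 5.68 CPM for Chat, 39.0 ± 4.91 for Slc18a3 and 33.9 ± 6.50 for Slc5a7 (SD, n = 4). BCL means were 9.93 ± 5.65, 2.51 ± 2.89 and 8.79 ± 8.45 CPM, and ONL means 3.08 ± 2.27, 3.23 ± 1.35 and 5.59 ± 7.61 CPM.

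**Figure D1:**
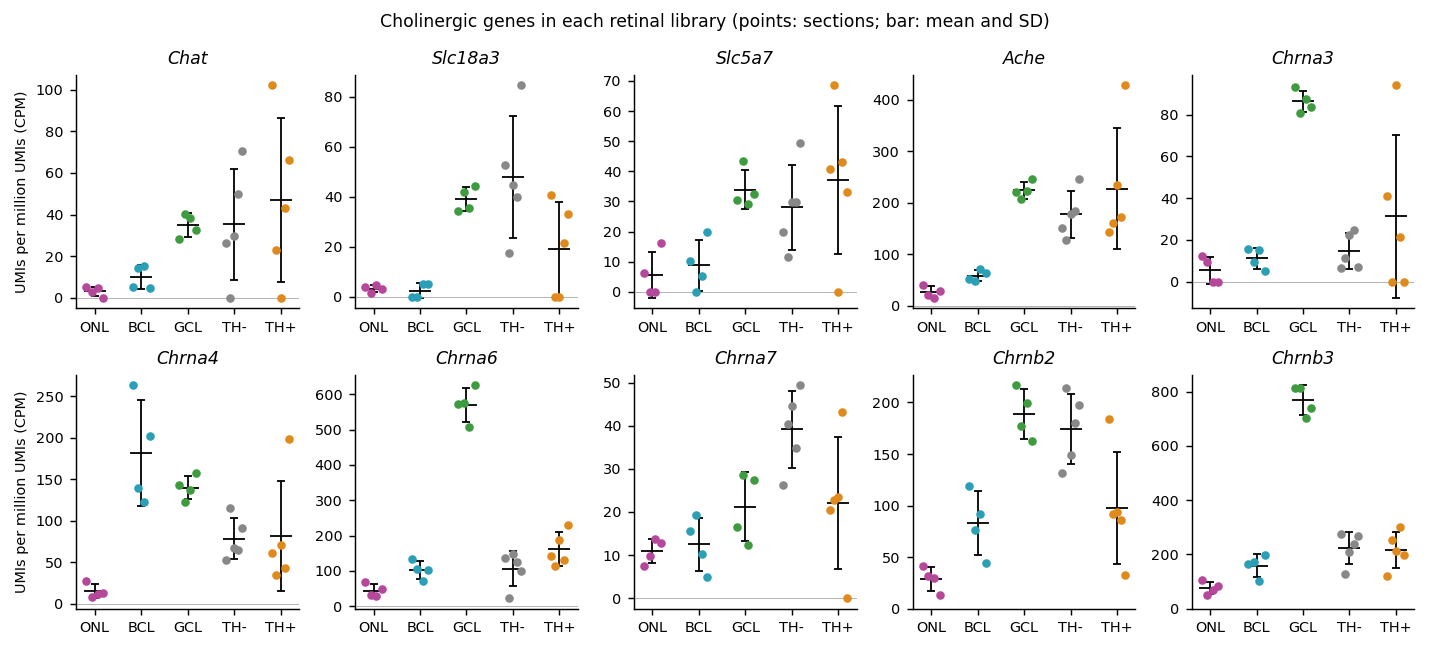
Levels of the 10 genes (CPM, linear axis starting at or just below 0) in the outer nuclear layer (ONL), bipolar cell layer (BCL), ganglion cell layer (GCL), and TH- and TH+ amacrine cells. Points are sections, and black bars give the mean and SD (n = 4 per layer, n = 5 per amacrine group). GCL and BCL points overlap for Chrna4 and Chrna7, and GCL points lie higher for the other genes. How many of all genes lie apart was not counted.

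Tested across all 11324 genes, Chat was higher in the GCL than in the BCL (log2 fold change 1.93 ± 0.45 SE, adjusted p = 0.000378), as were Slc5a7 (2.08 ± 0.54, adjusted p = 0.00133) and Slc18a3 (3.97 ± 0.59, adjusted p = 1.79e-07). The BCL held 2 Slc18a3 UMIs in all, so its size is better given by pooled counts: 104 against 2 UMIs, a ratio per UMI sequenced of 15.5 with an exact 95% counting interval of 4.18 to 129.7. Against the ONL, the log2 fold changes of the GCL were 3.05 ± 0.41 (Chat), 3.38 ± 0.40 (Slc18a3) and 2.703 ± 0.45 (Slc5a7), with adjusted p of 3.92e-09, 1.63e-10 and 6.59e-07. The size for Slc5a7 depended on single sections: against the BCL it was 2.91 without section 4 and 1.53 without section 2, and against the ONL 3.47 and 2.06, and each of these passed the test. Between BCL and ONL, none of the 3 passed the test (adjusted p = 0.226, 0.705 and 0.603). The study states default settings of featureCounts, which use no strand and leave a read that overlaps exons of 2 genes unassigned. Reads from where Slc18a3 overlaps its antisense neighbour, named Gm2990 in the counts, are then counted for neither gene. In the annotation used here, where that neighbour is named Litchi, it shares 1816 bases (75.3%) of the exon of Slc18a3, whereas the annotation behind the counts gave the neighbour 1356 exonic bases in all, so the overlap at counting was smaller and the levels of Slc18a3 are uncertain. Gm2990 itself had 4 UMIs over the 4 GCL libraries.

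Ache, the esterase, was the most abundant machinery gene. It stood at 222, 207, 223 and 246 CPM in the 4 GCL sections, at 51.6, 48.0, 71.1 and 64.3 in the BCL and at 41.2, 20.8, 16.0 and 29.01 in the ONL. Sections of the 3 layers did not overlap. The GCL exceeded the BCL by a log2 fold change of 2.09 ± 0.20 (adjusted p = 8.43e-13) and the ONL by 2.82 ± 0.18 (adjusted p = 2.64e-20). The BCL exceeded the ONL by 0.72 ± 0.29 (adjusted p = 0.0479). That last call lay at the threshold and was lost without section 2, 3 or 4 (adjusted p 0.131, 0.344 and 0.162).

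Chrnb3 and Chrna6 encode subunits that assemble together in high-affinity receptors, and they had the highest CPM of the 10 in the GCL and in the ONL. Chrnb3 reached 814, 814, 704 and 741 CPM in the GCL, 165, 173, 102 and 198 in the BCL and 105, 49.8, 68.5 and 83.8 in the ONL. Chrna6 reached 573, 575, 507 and 625 CPM in the GCL, 134, 106, 71.1 and 104 in the BCL, and 68.7, 31.8, 29.7 and 48.4 in the ONL. Every GCL section lay well above the other layers for both genes. Against the BCL the log2 fold changes were 2.43 ± 0.16 (Chrnb3, adjusted p = 4.45e-19) and 2.63 ± 0.17 (Chrna6, adjusted p = 9.36e-19). Against the ONL they were 3.15 ± 0.15 (adjusted p = 1.19e-25) and 3.45 ± 0.16 (adjusted p = 9.49e-26). The genes are neighbours that point towards each other: Chrnb3 (chr8:27858739-27889758, plus strand) ends 3481 bases from the end of Chrna6 (chr8:27893240-27903974, minus strand).

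Chrnb2, the beta subunit that pairs with Chrna4 in the commonest brain receptor, and Chrna3, an alpha subunit prominent in autonomic ganglia, were also highest in the GCL of the 3 layers. Chrnb2 counted 170, 118, 130 and 95 UMIs in the GCL, 23, 16, 18 and 9 in the BCL, and 33, 23, 13 and 4 in the ONL. Its GCL level of 189 ± 24.1 CPM exceeded the BCL level of 82.8 ± 30.9 (log2 fold change 1.37 ± 0.20, adjusted p = 1.12e-07) and the ONL level of 28.9 ± 11.8 (2.39 ± 0.19, adjusted p = 1.13e-16). Chrna3 counted 73, 54, 57 and 49 UMIs in the GCL, 3, 2, 3 and 1 in the BCL, and 10, 7, 0 and 0 in the ONL. Its GCL level of 86.3 ± 5.24 CPM exceeded the BCL by 3.08 ± 0.38 (adjusted p = 2.18e-09) and the ONL by 3.33 ± 0.30 (adjusted p = 3.28e-14, 3.92 without section 1) on the log2 scale. Both genes share exonic bases with a gene on the other strand, and reads there are left unassigned under the default settings. Adar, which shares 1365 bases (16.2%) with Chrnb2, had 485 UMIs over the GCL libraries, 89 over the BCL and 167 over the ONL, and Chrna5, which shares 790 bases (14.7%) with Chrna3, had 8, 1 and 15.

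Chrna4 had another layer pattern. It counted 112, 82, 89 and 92 UMIs in the GCL, 51, 29, 24 and 41 in the BCL, and 22, 6, 5 and 4 in the ONL. As CPM these are 143, 123, 137 and 157 in the GCL against 263, 139, 122 and 203 in the BCL, so that the layers overlap, and 27.5, 8.30, 11.4 and 12.9 in the ONL, below every other section. GCL and BCL were not distinguished (log2 fold change -0.21 ± 0.18, adjusted p = 0.403), and over the alternative settings the value ran from -0.38 to 0.02. Both layers exceeded the ONL, the GCL by 2.92 ± 0.24 (adjusted p = 5.53e-16, 3.57 without section 1) and the BCL by 3.12 ± 0.27 (adjusted p = 2.54e-14). Bipolar genes made up 0.654% to 0.728% of BCL UMIs and 0.0389% to 0.0537% of GCL UMIs, and amacrine genes 0.0955% to 0.131% and 0.232% to 0.258%. Whether either class carries the Chrna4 of the BCL was not tested.

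Chrna7, which can form channels on its own, was the lowest of the 6 subunits per kilobase in the GCL. It counted 13, 19, 8 and 16 UMIs in the GCL, 3, 4, 2 and 1 in the BCL, and 6, 7, 6 and 4 in the ONL. The GCL level of 21.2 ± 7.98 CPM overlapped both the BCL level of 12.4 ± 6.22 and the ONL level of 10.9 ± 2.88. Its log2 fold change was 0.89 ± 0.48 against the BCL (adjusted p = 0.141) and 0.85 ± 0.36 against the ONL (adjusted p = 0.0382). The latter call was lost without section 1, 2 or 4 (adjusted p 0.103, 0.209 and 0.112) and with DESeq2 (adjusted p = 0.0821).

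**Figure D2:**
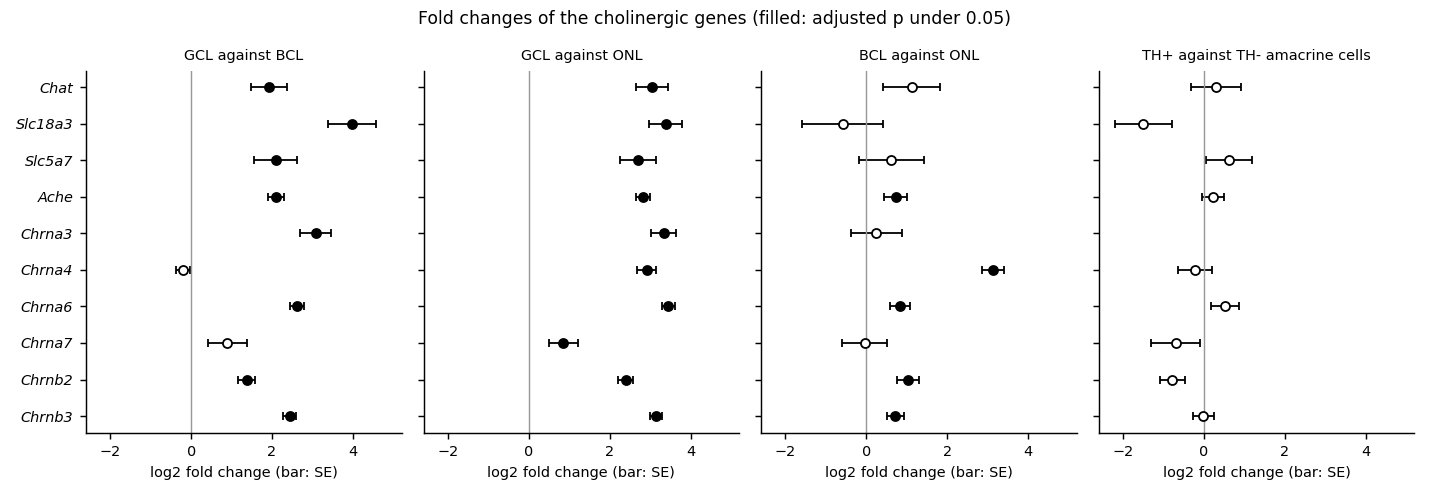
Log2 fold changes (points) with their standard errors (bars) from edgeR's quasi-likelihood fit, for the 10 genes in 4 comparisons. Filled points passed an adjusted p of 0.05, which holds for 8 genes in GCL against BCL, 10 in GCL against ONL, 5 in BCL against ONL and 0 of 9 in TH+ against TH- cells, where Chrna3 was too low to be tested.

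Counted together, 8 of the 10 genes were higher in the GCL than in the BCL and 0 were lower. Of all genes tested, 20.4% were higher in the GCL and 36.5% differed in either direction. The median log2 fold change of the 10 was 2.09, beside 0.02 over all genes tested. Against the ONL, all 10 were higher in the GCL, beside 32.2% of all genes (61.5% in either direction), with a median of 2.98 beside 0.00. In the BCL against the ONL, 5 were higher (Ache, Chrna4, Chrna6, Chrnb2 and Chrnb3), beside 18.2% of all genes (36.7% in either direction), with a median of 0.72 beside -0.09. Without section 2 that count fell to 2 (Chrna4 and Chrnb2), and without section 4 to 3 (Chrna4, Chrna6 and Chrnb2). Scaling by column totals alone moved the median of all genes to -0.15, 0.16 and 0.25 in the 3 comparisons, and the share of calls that were higher from 55.9% to 44.3% (GCL against BCL) and from 49.5% to 70.7% (BCL against ONL). The members' counts were the same under that scaling.

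Other cell classes moved with these layers. The 10 ganglion genes made up 0.685% to 0.769% of GCL UMIs, 0.0473% to 0.0707% of BCL UMIs and 0.0369% to 0.0739% of ONL UMIs. Of 8 amacrine genes, 6 were higher in the GCL than in the BCL and 2 did not pass. All 8 bipolar, all 10 rod and all 6 Müller glia genes were lower in the GCL than in the BCL, and against the ONL 4 of the Müller glia genes were higher in the GCL and 2 lower. Müller glia genes made up 0.144% to 0.172% of GCL UMIs, 0.673% to 0.756% of BCL UMIs and 0.0632% to 0.117% of ONL UMIs. All 4 microglia genes and both tested endothelial genes were higher in the GCL than in the ONL, and 1 of each list was higher than in the BCL, at 0.00323% to 0.00624% (microglia) and 0.00292% to 0.00751% (endothelial) of GCL UMIs. Of 5 further starburst genes, Fezf1 was too low to be tested, with 13 UMIs in the GCL, 0 in the BCL and 1 in the ONL. Megf10, Sox2 and Isl1 were lower in the GCL than in the BCL, by 3.42, 1.75 and 1.44 on the log2 scale, and Rnd3 did not pass (adjusted p = 0.453). Sox2 is also known from Müller glia, Megf10 from horizontal cells and Isl1 from ON bipolar cells. In bulk regions, a larger share of cells of a type and more RNA per cell cannot be told apart, and the part of each cell class in the members' levels was not tested.

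Levels are compared between genes per length, with no correction for sequence, although the primers end in GGG. Divided by gene length, the subunit order in the GCL was Chrna6 (196 ± 16.6 CPM per kb), Chrnb3 (121 ± 8.62), Chrna4 (27.8 ± 2.82), Chrnb2 (22.5 ± 2.88), Chrna3 (16.4 ± 0.99) and Chrna7 (4.70 ± 1.77). The sections of Chrna4 and Chrnb2 overlapped. Chrnb2 and Chrna3 were taken over their full length, including bases shared with Adar and Chrna5, so their values may be too low. In the BCL, Chrna4 (36.2 ± 12.8) and Chrna6 (35.7 ± 8.86) lay level, ahead of Chrnb3 (25.0 ± 6.42). Among machinery genes of the GCL, Ache stood at 48.5 ± 3.49 CPM per kb, Chat at 7.41 ± 1.21 and Slc5a7 at 6.01 ± 1.15. Slc18a3 stood at 16.2 ± 2.04 over its full length, and is given no place in that order because of the bases it shares with its antisense neighbour.

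Taking the 6 subunits as a whole, Chrna6 held 50.5% ± 1.92 of their UMIs per kb in the GCL, Chrnb3 31.1% ± 1.62 and Chrna4 7.18% ± 0.70 (SD, n = 4). In the BCL, Chrna6 held 31.9% ± 1.64, Chrna4 31.9% ± 4.72 and Chrnb3 22.6% ± 4.44. The Chrna4 share was thus 6.23% to 7.74% in GCL sections and 26.0% to 36.1% in BCL sections, with no overlap. In the ONL the Chrna4 share overlapped that of the GCL, with Chrna6 at 40.4% ± 4.92, Chrnb3 at 32.4% ± 4.15 and Chrna4 at 7.62% ± 1.76, although 53 to 210 UMIs of the 6 subunits per section stand behind it. Without division by length, Chrnb3 took the first place in the GCL (43.3%) and ONL (42.3%), and Chrna4 in the BCL (32.4%).

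**Figure D3:**
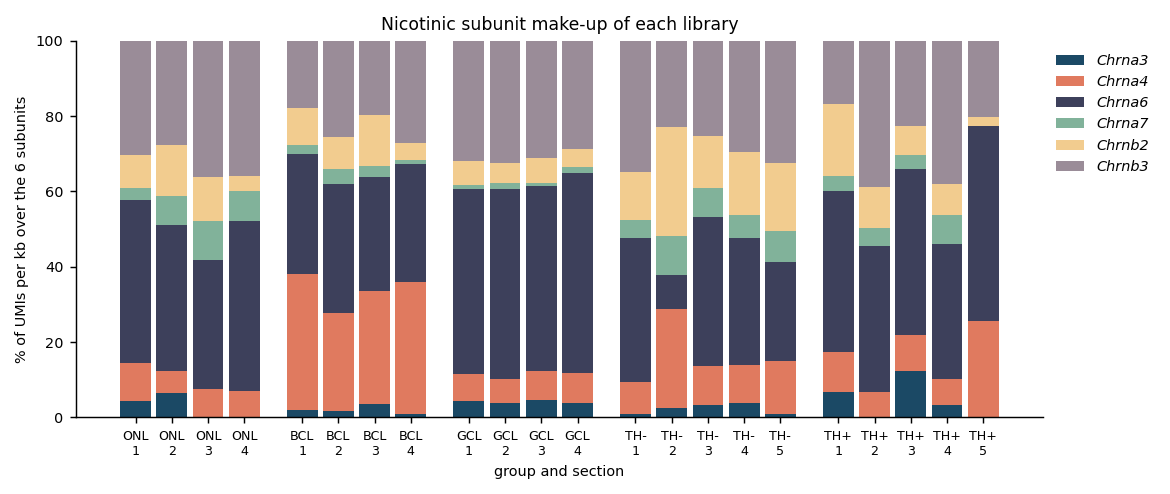
Make-up of the 6 nicotinic subunits in each library: each bar is 1 section, and colours give the percent of UMIs per kilobase taken by each subunit. Chrna4 takes 26.0% to 36.1% in BCL sections and 6.23% to 7.74% in GCL sections. The TH+ bars rest on 20 to 45 UMIs each.

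In the amacrine libraries, none of the 9 tested genes differed between TH+ and TH- cells. Of the 6021 genes tested, 50 (0.83%) differed, and DESeq2 also called 0 of the 9. With the section as a replicate block, 148 genes were called, again with 0 of the 9. At an unadjusted p under 0.05, 2 of the 9 were past it: Slc18a3 (adjusted p = 0.525) and Chrnb2 (adjusted p = 0.388). The median log2 fold change of the 9 was -0.01, beside -0.05 over all genes tested.

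The cholinergic machinery was detected in both groups. Slc18a3 counted 8, 3, 6, 8 and 12 UMIs in TH- sections 1 to 5 and 2, 0, 0, 1 and 1 in TH+ sections, or 47.8 ± 24.4 and 19.1 ± 18.7 CPM (n = 5). Its log2 fold change was -1.49 ± 0.70, and it was -2.10 without section 1 (adjusted p = 0.489). The ranges of the groups overlapped, while within each of the 5 sections the TH+ library was lower than the TH- library. Chat counted 4, 0, 4, 10 and 10 in TH- and 5, 2, 0, 2 and 2 in TH+ sections (35.3 ± 26.5 and 46.8 ± 39.4 CPM), with a log2 fold change of 0.30 ± 0.62. Slc5a7 counted 3, 2, 4, 6 and 7 in TH- and 2, 6, 0, 2 and 1 in TH+ sections, with a difference of 0.61 ± 0.57. These values rest on 0 to 12 UMIs per library. Leaving out 1 section changed the sign for Chat (-0.36 without section 1) and Slc5a7 (-0.10 without section 2). Ache stood at 178 ± 44.9 CPM in TH- and 228 ± 118 CPM in TH+ cells, 0.23 ± 0.27 apart on the log2 scale.

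Of the nicotinic subunits, Chrnb3 counted 42, 22, 28, 48 and 38 UMIs in TH- and 6, 22, 9, 14 and 6 in TH+ sections, or 224 ± 60.2 and 217 ± 66.8 CPM. Its log2 fold change was -0.01 ± 0.26. Chrna6 counted 21, 4, 20, 25 and 14 in TH- and 7, 10, 8, 6 and 7 in TH+ sections, with a difference of 0.51 ± 0.35. In each of the 5 sections its CPM was higher in the TH+ than in the TH- library, and TH- section 2 was the lowest (23.1 CPM against 98.7 to 149 in the other TH- sections). Chrnb2 counted 20, 37, 20, 36 and 28 in TH- and 9, 8, 4, 4 and 1 in TH+ sections, or 174 ± 34.0 and 97.8 ± 54.2 CPM, a log2 fold change of -0.78 ± 0.32 with overlapping groups. Chrna4 differed by -0.21 ± 0.42 and Chrna7 by -0.70 ± 0.60. Chrna3 had 12 UMIs over the TH- and 7 over the TH+ libraries.

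Rod genes made up 1.52% to 3.92% of TH+ UMIs and 0.866% to 2.27% of TH- UMIs, with 4 of 10 higher in TH+ cells, and ganglion genes 0.0618% to 0.125% and 0.0538% to 0.116%. Their part in the amacrine levels was not tested.

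Set side by side, with layer and amacrine libraries made in separate experiments that cannot be told apart from the groups, the 10 genes fell into different orders. Chrnb3, Chrna6, Chrna3 and Chrnb2 had their highest mean in the GCL. For Chrnb3 and Chrna6 every GCL section lay above every other library, the next group being TH- cells at 224 CPM (Chrnb3) and TH+ cells at 161 CPM (Chrna6). For Chrna3 the GCL range overlapped TH+ cells, where 1 section with 4 UMIs stood at 94.1 CPM. For Chrnb2 it overlapped TH- cells and also TH+ cells, where section 1 stood at 184 CPM. Chat, Slc5a7 and Ache had their highest mean in TH+ cells (46.8, 37.1 and 228 CPM), and Slc18a3 in TH- cells (47.8 CPM). The ranges of Chat, Slc18a3, Slc5a7 and Ache overlapped between the GCL and each amacrine group. Chrna7 was highest in TH- cells (39.1 ± 8.93 CPM), overlapping TH+ cells and the GCL. Chrna4 was highest in the BCL, followed by the GCL, TH+ cells (81.5 ± 66.7, with section 5 at 198) and TH- cells (78.4 ± 25.2), and TH- cells lay apart from the ONL.

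Within TH- cells the 6 subunits were more evenly spread than in the GCL, with Chrna6 at 29.4% ± 12.5 of UMIs per kb, Chrnb3 at 28.98% ± 4.97, Chrnb2 at 18.1% ± 6.55, Chrna4 at 13.8% ± 7.24 and Chrna7 at 7.43% ± 2.13 (n = 5). In the GCL, Chrnb2 held 5.83% ± 0.90 and Chrna7 1.20% ± 0.42, below every TH- section. TH+ cells held Chrna6 at 42.6% ± 6.05 and Chrnb3 at 27.3% ± 10.4.

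Among other nicotinic subunits, 8 of 10 were listed in the layer table and 2 were tested there. Chrnb1, the beta subunit of muscle, was lower in the GCL than in the ONL (log2 fold change -1.37 ± 0.48, adjusted p = 0.0109), on 13 and 26 UMIs. Chrnb4, whose gene lies 1496 bases from Chrna3, passed in no comparison, with 17 UMIs in the GCL, 1 in the BCL and 12 in the ONL. Chrna2 was at 3 to 7 UMIs in each layer, or 2.63 CPM in the GCL, 7.43 in the BCL and 1.19 in the ONL. It had 50 UMIs over the TH- libraries (62.7 CPM) and 7 over the TH+ libraries (28.6 CPM). The difference between TH+ and TH- cells did not pass (log2 fold change -1.15 ± 0.51, adjusted p = 0.456).

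Muscarinic receptors, the G protein-coupled receptors for acetylcholine, showed 2 layer patterns among the 3 tested. Chrm1 stood at 46.7 ± 6.97 CPM in the GCL against 2.49 ± 2.88 in the BCL and 3.45 ± 3.73 in the ONL, and was higher in the GCL than in either (adjusted p = 4.77e-08 and 1.501e-10). Its pooled counts of 126 and 2 UMIs give a GCL to BCL ratio of 18.8 with an exact interval of 5.09 to 157. Chrm2 and Chrm3 did not differ detectably between GCL and BCL (adjusted p = 0.962 and 0.210). Both were higher than the ONL in the GCL, by 2.62 ± 0.38 and 1.72 ± 0.49, and in the BCL, by 2.65 ± 0.47 and 2.39 ± 0.55 on the log2 scale. The median of the 3 was -0.03 for GCL against BCL and 2.62 for GCL against ONL.

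Of 13 genes of choline supply and acetylcholine turnover, 6 were tested in the layers. In the GCL 0 were higher and 2 lower than in the BCL, and 2 higher and 3 lower than in the ONL. In the BCL 2 were higher and 2 lower than in the ONL. Of all genes tested, 36.5%, 61.5% and 36.7% differed in these comparisons, so the counts of these 6 genes are read as no result about the list. Bche, butyrylcholinesterase, was low and mainly in the BCL: 22 UMIs there against 4 in the GCL and 2 in the ONL, or 27.4 ± 12.2, 1.504 ± 0.18 and 0.66 ± 0.76 CPM. It was lower in the GCL by 3.82 on the log2 scale (SE 0.63, adjusted p = 1.45e-06), and the BCL to ONL ratio of pooled counts was 31.2 (exact interval 7.67 to 274). Ache and Bche thus stood highest in different layers. Slc44a1, a choline transporter of wide expression, was highest in the ONL at 156 ± 16.8 CPM, against 55.4 ± 25.1 in the BCL and 36.7 ± 10.8 in the GCL, and was lower in both (adjusted p = 1.68e-09 and 2.75e-16). Its relative Slc44a2 was higher in the GCL than in the ONL (1.21 ± 0.29, adjusted p = 0.000244). Chka, which phosphorylates choline, was lower in the GCL than in the BCL and ONL (-0.99 ± 0.30 and -0.74 ± 0.25). Acly, which makes acetyl-CoA, was lower in the GCL and BCL than in the ONL (-0.38 ± 0.11 and -0.46 ± 0.13). Chdh, which oxidises choline, was higher in the GCL and BCL than in the ONL, where it had 1 UMI (pooled ratios of 14.4, interval 2.25 to 600.5, and 14.2, interval 1.59 to 671).

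Of 8 chaperones and Ly6-type modulators of nicotinic receptors, 6 were tested in the layers, and 4 were higher in the GCL than in the BCL and ONL, beside 20.4% and 32.2% of all genes. The medians of the 6 were 1.64 and 2.94, beside 0.02 and 0.00 over all genes tested, and nothing particular to the list is read from them. Lynx1, a membrane-anchored brake on nicotinic receptors, stood at 945 ± 73.8 CPM in the GCL, 164 ± 57.8 in the BCL and 106 ± 35.4 in the ONL (GCL to BCL 2.69 ± 0.17, adjusted p = 1.06e-19). Lypd6 was higher in the GCL by 2.71 ± 0.34 (adjusted p = 2.24e-09), Ly6e by 1.85 ± 0.27 (adjusted p = 6.59e-08) and Ly6h by 1.43 ± 0.33 (adjusted p = 0.000407) than in the BCL. Ly6h and Ly6e were also higher in the BCL than in the ONL, by 1.53 ± 0.51 and 1.36 ± 0.42. The chaperone Ric3 passed in no comparison, and Tmem35a, which encodes the assembly factor NACHO, was lower in the GCL and BCL than in the ONL (-1.08 ± 0.16 and -1.03 ± 0.22). Of the 12 genes of these 4 lists tested between TH+ and TH- cells, 0 passed by edgeR and 0 by DESeq2, and 1 (Chrna2) had an unadjusted p under 0.05.

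**Figure D4:**
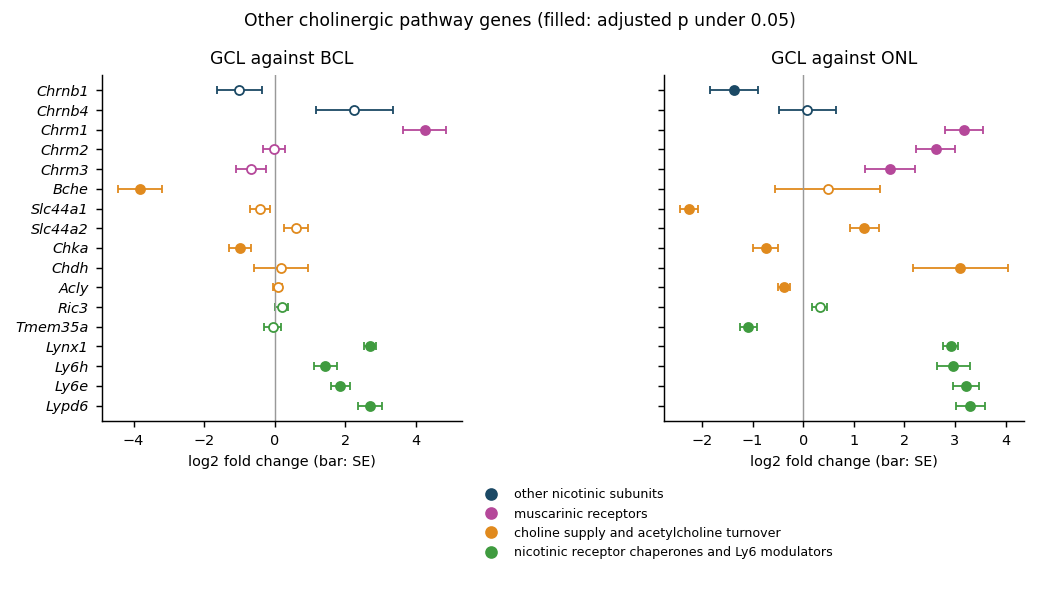
Log2 fold changes of other cholinergic genes in the GCL against the BCL (left) and the ONL (right), with standard errors. Colours give the list of each gene and filled points passed an adjusted p of 0.05. Chrm1, Lynx1, Ly6h, Ly6e and Lypd6 lie to the right in both panels, and Bche lies at -3.82 in the left panel.

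Genes whose levels were most like those of 9 members over the 22 retinal libraries were found among the 6010 genes tested in both experiments, by Pearson's r of log2 CPM, and are given as a description, since the libraries share layers, sections and depth. Chrna3, which was too low to be tested in the amacrine libraries, was left out. Chrnb3 was most like Cplx1 (r = 0.938), Lynx1 (0.933) and Prune2 (0.932), and Chrna6 was close to Srgap1 (0.911) and Cplx1 (0.911). Ache was most like Pianp (0.971) and Disp2 (0.970). Chrna4 was most like Reln (0.907), Abr (0.899) and Tox2 (0.895), and Chrnb2 most like Ncan (0.900), Zdhhc22 (0.892) and Add2 (0.881). The low genes gave Atp2b3 (0.815), Podxl2 (0.810) and Dcakd (0.805) for Chat, Insyn1 (0.884) and Myh10 (0.851) for Slc18a3, and Rims3 (0.873), Gad2 (0.852) and Hmgcs1 (0.839) for Slc5a7. Chrna7 gave Noc2l (0.850), Snx8 (0.841) and Prrt4 (0.817). Between members, r was 0.904 for Chrna6 and Chrnb3, 0.759 for Chat and Slc18a3, and -0.01 for Chrna6 and Chrna7.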

How the data were processed

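The authors deposited raw counts: whole numbers of UMIs per gene and library, from reads processed with UMI-tools 1.1.1, mapped with STAR 2.7.9a and assigned to genes with featureCounts, per the labels on mouse build mm39 and per the methods with annotation vM27. Reads were deduplicated per gene. The study states default settings of featureCounts, which count reads in exons without strand. Gene lengths came from the deposited mouse count tables of the mixed cultures, of which only the 3T3 counts were used.

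CPM divides by a library's column total. The 12 layer libraries were fitted together, and the 10 amacrine libraries together, with edgeR 4.0.16 (quasi-likelihood F test, TMM, low-count filter set at 3 UMIs per library and 10 in total, Benjamini-Hochberg at 0.05 over 11324 and 6021 genes), without a block. The standard error is the log2 fold change divided by the root of F. Alternatives were DESeq2 1.42.0, other scalings, filters, the section as a block and leaving out each section. Libraries of 1 section share a GEO sample, so the labels pair them, while residuals of paired libraries correlated at 0.01 to 0.05 (layers) and 0.03 to 0.26 (amacrine). Coordinates are GRCm39 with GENCODE vM39, later than the authors' annotation. All 10 genes were named in every comparison, with every pathway gene that passed, values for the 4 with the smallest adjusted p of each list, and the 3 likest genes of each member but Chrna3, of which some are not reported here. Genes beyond these were named after their values were seen. Members and lists were chosen with earlier results of these data known. The pooled library, human cells and a deeper run were not used here.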

Additional observations from a re-analysis of the deposited data

Results flagged for a closer look

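Of 50 groups of libraries checked, 10 genes in 5 groups, 1 held a library whose gap to its nearest neighbour, as a share of the group's range, was past Dixon's 95% critical value: Chrna4 in TH+ section 5, at 198 CPM against 34.3 to 70.6 CPM in the other 4 sections. The value rests on 6 UMIs in the shallowest library, of 30317 UMIs. Chance alone sets about 1 in 20 such groups apart.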

How the results depend on the processing

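The count of members higher in the GCL than in the BCL was 8 under every alternative run, and the replicate block changed no call of a member. Against the ONL the count was 9 to 10, and between BCL and ONL it was 5, except 4 without the low-count filter and 2 to 5 when a section was left out. The amacrine comparison gave 0 members in every setting, among those tested: the default low-count filter left Ache, Chrna6, Chrnb2 and Chrnb3. Over all genes it called 50, against 148 with the replicate block and 29 to 73 when a section was left out. Dividing by gene length decided which subunit led: Chrna6 had the largest share in 4 of 5 groups per kb (3 to 4 when a section was left out) and in 0 by UMIs. Of 10 members, 4 were highest in the GCL (3 to 6 when a section was left out). Changes of sign touched only differences that had not passed. On the log2 scale, Chrna7 in the BCL against the ONL turned to 0.0257 (DESeq2), 0.0540 (RLE), 0.295 (column totals) and 0.0198 (no mitochondrial genes), and ran from -0.349 to 0.241 when a section was left out. Chrnb3 in TH+ against TH- cells turned to 0.0178 (DESeq2), 0.0273 (RLE), 0.0491 (default filter) and 0.0657 (replicate block), with -0.261 to 0.202 when a section was left out. Leaving out a section also gave -0.327 to 0.0169 for Chrna4 (GCL against BCL), -0.253 to 0.699 for Chrna3 (BCL against ONL) and, in TH+ against TH- cells, -0.355 to 0.543 for Chat, -0.102 to 0.928 for Slc5a7 and -0.606 to 0.275 for Chrna4. The causes were not tested. The default filter removed Chrna7 from the layer fit. TH+ libraries, at 30317 to 87449 UMIs, were the shallowest.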
